A study of Mus musculus with 6 samples.

Results

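The cytosolic ribosomal protein genes encode the protein parts of the ribosome that translates nuclear messenger RNA. Their rows were picked by gene symbol: names that begin with Rpl or Rps and a number, together with Rplp0, Rplp1, Rplp2 and Rpsa, without the ribosomal S6 kinases and Rps19bp1. The rule found 91 genes among 30803 deposited rows, of which 46 encode core proteins of the large subunit, 31 encode core proteins of the small subunit and 14 are paralogs or retrogene copies outside the core list. RNA was sequenced from bone marrow cells of WT mice at 12 months of age, labelled hematopoietic stem cells and sorted by their surface level of MHC class II into MHCII-hi and MHCII-lo fractions. Each fraction has 3 libraries, so 6 libraries in all, and MHCII-lo is the reference throughout. No treatment or engineered allele is named in the labels. They do not say whether the libraries of a fraction came from separate mice or from pools, so the p-values rest on library-to-library spread that could be purely technical.

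The large subunit of the ribosome joins amino acids and holds the exit tunnel for the new protein, and the small subunit reads the messenger RNA. Each core protein is present in 1 copy per ribosome, apart from the acidic stalk proteins Rplp1 and Rplp2, and the genes are therefore usually expressed as a set. Most of their messenger RNAs start with a terminal oligopyrimidine (TOP) tract, a C followed by an unbroken run of C and T, through which Larp1 and the mTOR kinase control their translation. In blood formation the family is best known from Diamond-Blackfan anemia, in which loss of 1 allele of a ribosomal protein gene impairs red cell production. The mouse genome also holds many processed copies of these genes, intronless DNA copies made from their messenger RNA, and short reads from a parent and from a near-identical copy cannot always be told apart.

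The deposited values are taken as FPKM, fragments scaled to transcript length and library size, so they can be compared between genes per length. Their sum ran from 327364 to 346651 over the 6 libraries, and the sequencing depth behind them is unknown. All 4 class II genes of the sort check rose in MHCII-hi, for example H2-Ab1 from 11.2 ± 0.479 to 18.9 ± 0.730 FPKM (SD, n = 3 each). Of 12 stem cell markers, 5 were under 1 FPKM in every library (Procr, Slamf1, Mecom, Fgd5 and Hoxb5), and of the 7 tested 3 rose and 2 fell. Of 22 neutrophil markers 21 rose, and their summed level was 12170 to 12270 FPKM in MHCII-lo against 58440 to 59070 in MHCII-hi, with none at 0. Among 15 erythroid markers 14 fell (summed level 605 to 616 against 380 to 394 FPKM), 9 of 10 tested dendritic and monocyte markers fell (887 to 903 against 524 to 555 FPKM), and 5 of 9 tested B and plasma cell markers rose (4070 to 4098 against 4364 to 4390 FPKM). These sums cover all listed markers, tested or not, and most of the B and plasma cell sum lay in 1 gene that made no call. The part that these cell type markers have in the results below was not tested, and in bulk RNA fewer cells of a type and less RNA per cell cannot be told apart.

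Ribosomal protein messenger RNAs were lower in MHCII-hi almost without exception. In the limma fit on log2(FPKM + 1) over all 12037 genes averaging 1 FPKM or more, 76 of the 77 core genes fell at an adjusted p under 0.05 and none rose. The background is high in this comparison: 40.6% of all tested genes fell and 20.4% rose, 60.9% together. The median log2 fold change (MHCII-hi minus MHCII-lo) was -0.53 over the core genes, with a range of -1.53 to -0.33, against -0.12 over all tested genes. Of all 91 members 88 passed the filter, 84 fell, 1 rose and 3 made no call. The values of the 2 fractions did not overlap for 84 members, all lower in MHCII-hi, where 45% of all tested genes were lower without overlap. Median-ratio scaling moved the all-gene median to -0.01 and the share of all genes that fell to 25.9%, and 76 core genes still fell, with a median of -0.40.

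The most abundant members showed the pattern in each library. Rps3a1, a small subunit protein, had the highest level of the family, with 1591, 1589 and 1566 FPKM in MHCII-lo against 1148, 1165 and 1136 in MHCII-hi. Rplp1, an acidic protein of the stalk that recruits elongation factors, had 1398, 1446 and 1429 FPKM against 887, 865 and 864. Both genes were separated by far more than the spread within a fraction. Rplp0, the base of the same stalk, had 1067, 1075 and 1093 FPKM against 760, 760 and 770. Rpl4, whose loop lines the exit tunnel, averaged 994 ± 13.0 against 724 ± 3.37 FPKM, and Rps4x, the X-linked S4 gene, averaged 960 ± 1.34 against 687 ± 6.40 FPKM (SD, n = 3 each). Log2 fold changes of these 5 genes were -0.46, -0.71, -0.50, -0.46 and -0.48.

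**Figure D1:**
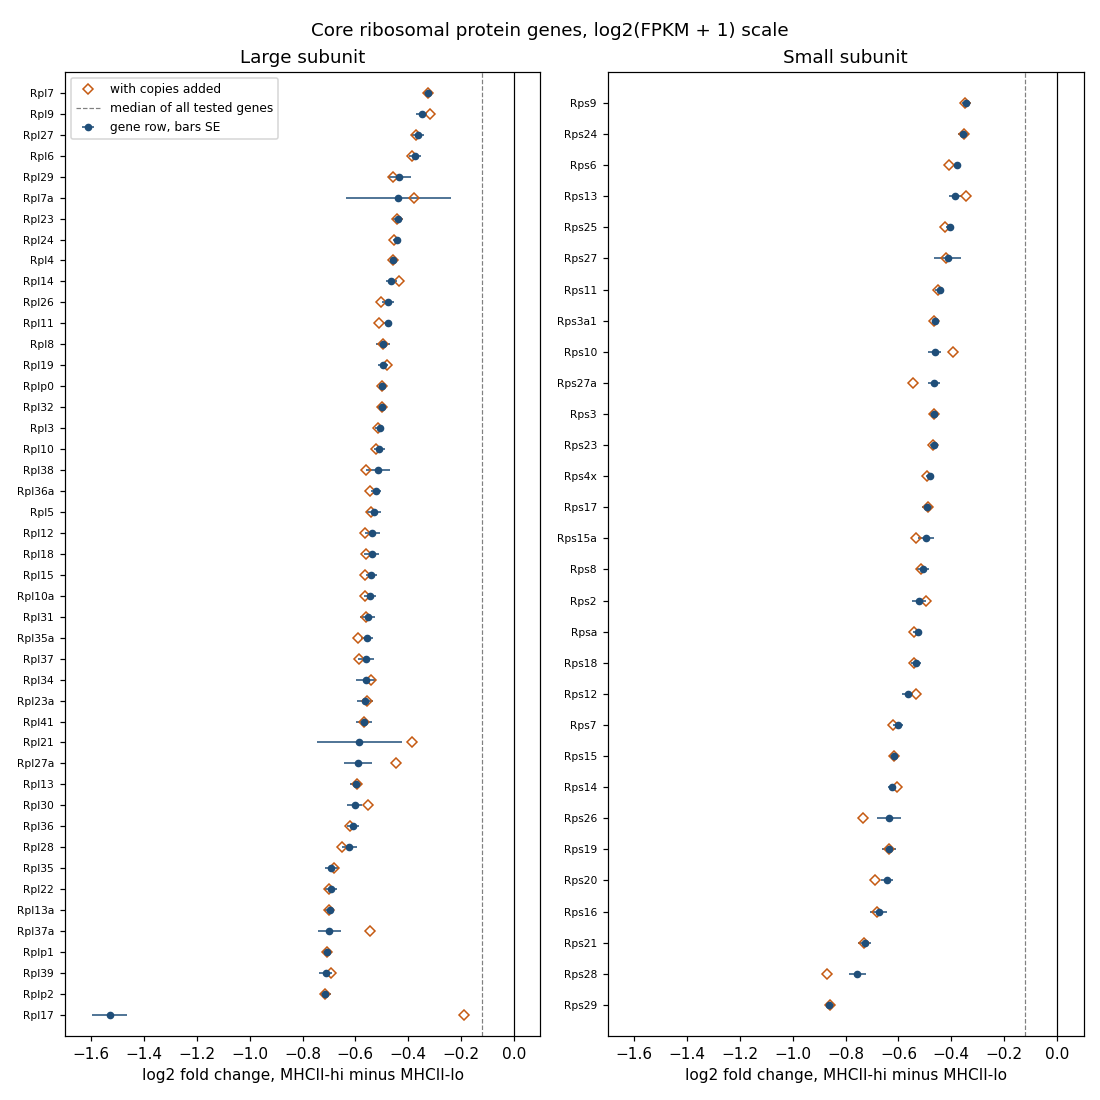
Log2 fold change on the log2(FPKM + 1) scale (MHCII-hi minus MHCII-lo) of core genes, large subunit on the left and small subunit on the right. Filled points are the gene rows with SE bars (3 against 3 libraries), open diamonds the values after the near-identical copies were added to the parent, and the dashed line the median of all tested genes (-0.12). Every filled point lies left of that line, and Rpl17 is the 1 gene whose 2 symbols lie far apart.

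Added up, the 77 core genes held 9.23%, 9.33% and 9.32% of all FPKM in the MHCII-lo libraries and 6.10%, 6.10% and 6.08% in the MHCII-hi libraries. The 2 fractions were far apart, at 9.29% ± 0.0534 and 6.09% ± 0.0122 (SD, n = 3 each; two-sided exact permutation p = 0.1, the smallest that 3 against 3 libraries allow). The neutrophil markers moved the other way, from 3.73% ± 0.0202 to 17.0% ± 0.0357 of all FPKM. With those markers taken out of the total, the core share was 9.65% ± 0.0562 against 7.34% ± 0.0159, a difference of -2.31 percentage points in place of -3.20. The copies of core genes, described below, made up a further 3.70% ± 0.0321 and 2.55% ± 0.0252.

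**Figure D2:**
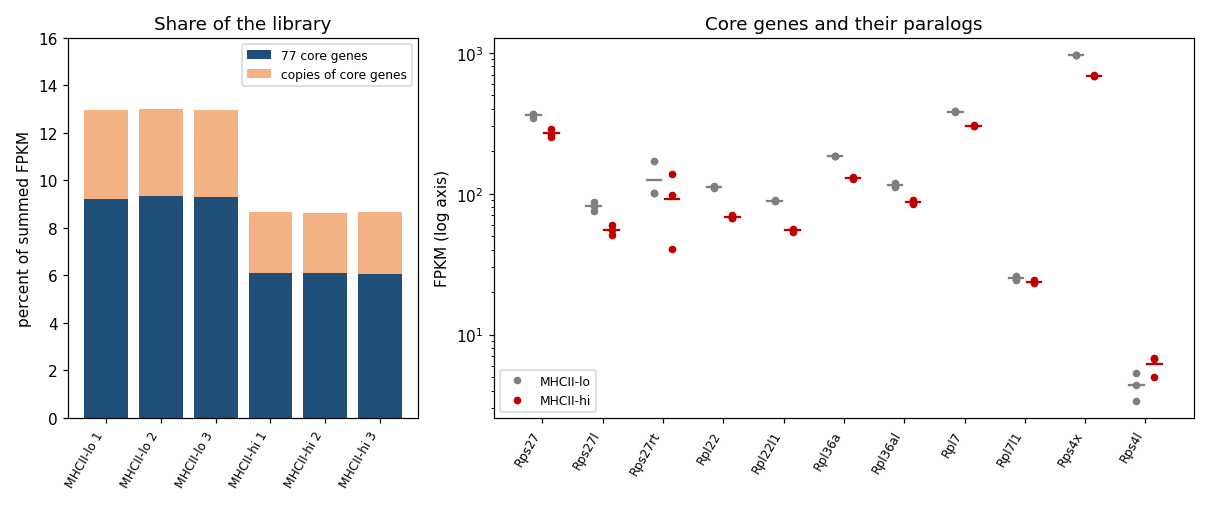
Left, percent of the summed FPKM of each library held by the 77 core genes and by their copies. Right, FPKM (log axis) of 4 core genes beside their paralogs, and of Rps27 beside its paralog and its retrocopy, 1 point per library with a line at the mean. The core share is between 9.23% and 9.33% in MHCII-lo and between 6.08% and 6.10% in MHCII-hi, and Rps4l is the 1 gene shown with a higher mean in MHCII-hi.

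Both subunits took part to nearly the same degree. For the large subunit 45 of 46 genes fell, with a median log2 fold change of -0.54, and for the small subunit 31 of 31 fell, with a median of -0.51. The 1 large subunit gene with no call was Rpl7a. Within each library, the mean log2(FPKM + 1) of the large subunit genes minus that of the small subunit genes was -0.291, -0.292 and -0.276 in MHCII-lo against -0.297, -0.333 and -0.311 in MHCII-hi. The fractions did not overlap on this measure, and the difference between them was -0.027 (exact permutation p = 0.1). It turned to 0.019 once copies were added to their parents (from 0.0474 ± 0.00288 to 0.0665 ± 0.00585, SD, n = 3 each, exact permutation p = 0.1), so no direction between the subunits is held by both ways of counting.

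Functional groups within the ribosome shared the fall of the family, in which 76 of 77 core genes fell. Over all tested genes 40.6% fell, and 45% were lower without overlap. All 4 stalk genes fell, with a median log2 fold change of -0.62: Rplp2 at -0.71 (182 ± 2.43 to 111 ± 1.47 FPKM) and Rplp1 at -0.71 fell further than Rplp0 at -0.50 and Rpl12, which binds at the stalk base, at -0.54. Rpl5 and Rpl11, which carry 5S ribosomal RNA and can bind the p53 regulator Mdm2, fell by 0.53 and 0.48 on the log2 scale. Rpl5 had 317, 303 and 312 FPKM in MHCII-lo against 211, 221 and 213 in MHCII-hi, and Rpl11 had 213, 210 and 210 against 150, 151 and 153, again without overlap. Of the core genes known from Diamond-Blackfan anemia 19 of 19 fell, with a median of -0.54, and of the other core genes 57 of 58 fell, with a median of -0.52. Rps19, the gene most often affected in that disease, had 120, 122 and 118 FPKM against 79.0, 75.1 and 76.1. Fau, whose product joins a ubiquitin-like protein to a ribosomal protein and whose symbol lies outside the rule, fell by 0.38 on the log2 scale.

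The size of the decrease differed between members by more than the spread within fractions. Apart from Rpl17, described below with its copies, the lowest log2 fold changes belonged to Rps29 at -0.86 ± 0.0174 (SE), Rps28 at -0.75 ± 0.0309, Rps21 at -0.73 ± 0.0250, Rplp2 at -0.71 ± 0.0203 and Rpl39, a short protein of the exit tunnel wall, at -0.71 ± 0.0251. Rps29, a zinc-binding protein of the small subunit head, had 412, 402 and 409 FPKM in MHCII-lo against 224, 222 and 226 in MHCII-hi. At the other end were Rpl7 at -0.33 ± 0.0168, Rps9 at -0.34 ± 0.0160, Rpl9 at -0.35 ± 0.0202, Rps24 at -0.35 ± 0.0224, Rpl27 at -0.36 ± 0.0246 and Rpl6 at -0.37 ± 0.0216. Rpl7, which sits close to the 5S RNA, had 383, 379 and 384 FPKM against 303, 301 and 309. Both ends of the range fell, so they differ in degree and not in direction.

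To ask which genes departed from the family, the mean log2(FPKM + 1) of the core genes was subtracted from each library before the fit. On this relative scale 21 core genes were lower and 28 higher in MHCII-hi at an adjusted p under 0.05 (limma, Benjamini-Hochberg), where 3.44% of all tested genes were lower and 79.2% higher. After copies were added to their parents, 19 of the 21 stayed lower and 20 of the 28 stayed higher (3.6% and 79.6% of all genes tested that way). Another 8 of the 28 made no call in that fit, and 1 of the 21, Rpl17, turned from lower to higher. On the relative scale Rps29 was at -0.31 (adjusted p = 7.59e-06), Rps28 at -0.20, Rps21 at -0.18, Rpl7 at 0.22 (adjusted p = 3.17e-05) and Rps9 at 0.21.

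Members with short coding sequences tended to have lower fold changes. Across the 77 core genes, the longest annotated coding sequence and the log2 fold change had a Spearman rho of 0.40, and 0.42 with copies added. The genes share the same 6 libraries, so this is a description and the genes are not independent replicates. What this relation comes from, the length scaling of FPKM included, was not tested. Among the 9812 other tested coding genes rho was 0.157. The 9 core genes under 300 bases had a median log2 fold change of -0.70, or -0.59 with copies added, and the 24 of at least 600 bases had -0.51 in both. Other coding genes under 300 bases had a median of -0.25 (n = 192), and those of at least 600 bases had -0.097 (n = 8519). Lower values of short genes were thus not confined to the family. The core medians did not rise steadily with length. The 18 core genes from 450 to under 600 bases had -0.49, or -0.47 with copies added. Rps29 (168 bases), Rps28 (207 bases), Rps21 (249 bases) and Rpl39 (153 bases) are all in the shortest class, but Rpl41, the shortest core gene at 138 bases, was at -0.57, Rpl38 at 210 bases at -0.51 and Rps27 at 252 bases at -0.41, the smallest decrease of the 9. Mean FPKM had a rho of 0.20 and the GC percent of the transcript one of -0.22 with the log2 fold change over the same 77 genes.

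**Figure D3:**
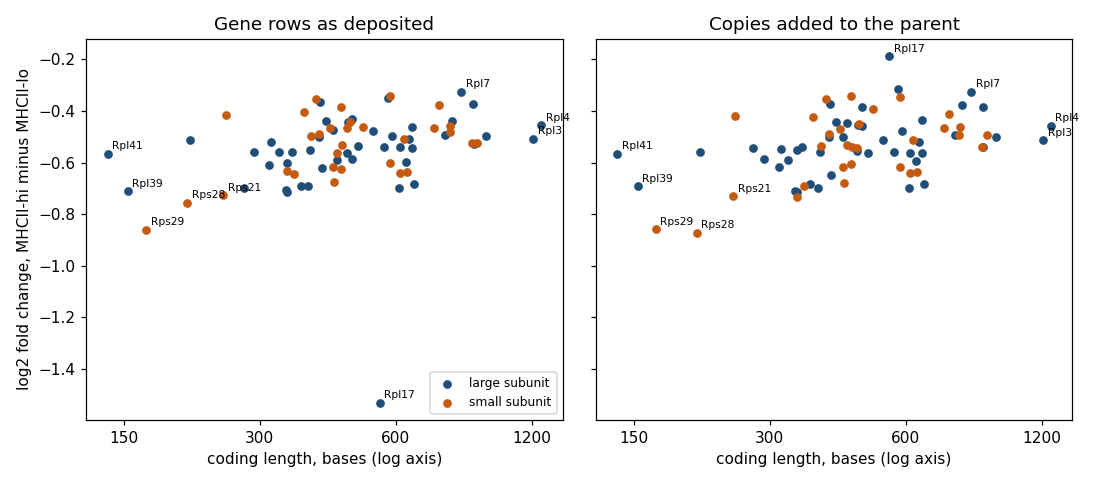
Log2 fold change of each core gene (MHCII-hi minus MHCII-lo) against its coding length in bases on a log axis, from the gene rows on the left and with copies added on the right. Blue points are large subunit and orange points small subunit genes, and selected genes are named. Rps29 and Rps28 stay lowest among the short genes in both panels, and Rpl17 moves from -1.53 to -0.19.

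The coding sequences of the core genes were aligned to all annotated transcripts, and rows elsewhere in the genome that matched at 90% identity or more over at least 80% of the coding sequence were taken as copies. There were 731 copies of core genes, 316 of them with a mean of at least 1 FPKM, and 70 of the 77 core genes had at least 1 such copy. For 14 of the 77 core genes the gene's own row held under 50% of the summed signal of its sequence in MHCII-lo, and for 63 it held 50% or more, with a median of 81.1%. Of these 316 copies 238 fell (75.3%), 2 rose and 76 made no call, with a median log2 fold change of -0.51. In the same fit 40.6% of all tested genes fell and 20.4% rose. When each parent and its copies were summed, 77 of 77 core genes fell (39.8% of all genes tested this way fell), with a median of -0.54 and a range of -0.87 for Rps28 to -0.19 for Rpl17. The 7 core genes without such a copy, among them Rpl8, Rpl41, Rplp2, Rps3 and Rps19, all fell, with a median of -0.64.

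Rpl17, a large subunit protein beside the exit tunnel, was the member whose value depended most on its copies. Its own row had 205, 199 and 176 FPKM in MHCII-lo against 69.1, 67.9 and 62.2 in MHCII-hi, a log2 fold change of -1.53 ± 0.0646 (adjusted p = 2.21e-06) and the lowest of the family. Rpl17-ps10, a processed copy with 4 mismatches to the Rpl17 coding sequence, went the other way, with 287, 275 and 310 FPKM against 374, 375 and 374 (log2 fold change 0.37, adjusted p = 2.70e-04). No value of either row overlapped between the fractions. Its second most abundant copy, Rpl17-ps3, with 2 mismatches, fell from 208 ± 10.4 to 167 ± 6.05 FPKM. Summed over the 10 copies with a mean of at least 1 FPKM and the further copies below it, the sequence had 897 FPKM in MHCII-lo against 787 in MHCII-hi, a log2 fold change of -0.19 ± 0.0156 (adjusted p = 5.26e-05), the smallest decrease among the core genes counted with their copies. The row's own share of that sum was 21.6% in MHCII-lo against 8.44% in MHCII-hi. Which of these rows the reads truly came from was not tested.

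Rpl21 and Rpl7a showed the same dependence in other forms. Rpl21 had the lowest row of any core gene, with 24.0, 22.9 and 31.1 FPKM against 18.1, 13.3 and 19.7, yet the sum with its copies was 1434 against 1097 FPKM, of which its own row held 1.81% and 1.55%. Its copies Rpl21-ps15, Gm10163, Gm10240 and Gm13370, each had between 168 and 354 FPKM in every library. The log2 fold change of Rpl21 was -0.59 ± 0.161 by its own row (adjusted p = 0.0175, and 0.0522 with no filter on low values) and -0.39 ± 0.0225 by the sum. Rpl7a had 246, 223 and 265 FPKM in MHCII-lo against 245, 176 and 135 in MHCII-hi, and its fractions overlapped (log2 fold change -0.44 ± 0.198, adjusted p = 0.0947). In the same MHCII-hi libraries its copy Rpl7a-ps11 had 135, 197 and 222 FPKM, so the library highest for the parent was lowest for the copy. The sum of the family of Rpl7a sequences fell from 925 to 714 FPKM (log2 fold change -0.38 ± 0.0636, adjusted p = 0.00186). The row was also a minor part of the summed signal in MHCII-lo for Rpl23 (31.1%, most of the rest in Gm9794), Rpl30 (29.4%), Rpl34 (24.8%), Rps12 (24.7%, most of the rest in Rps12-ps3) and Rps10 (24.2%).

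**Figure D4:**
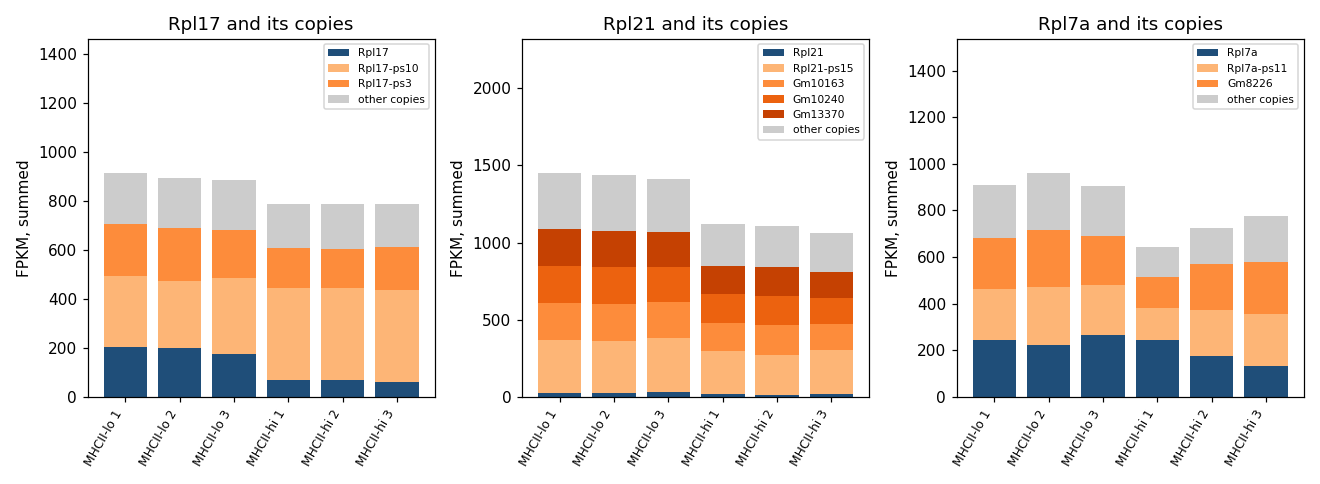
Summed FPKM of Rpl17, Rpl21 and Rpl7a with their processed copies in each library, the parent row in blue at the base, the most abundant copies in orange and the remaining copies in grey. The parent row of Rpl17 shrinks from between 176 and 205 FPKM to between 62.2 and 69.1, while Rpl17-ps10 grows, and the parent row of Rpl21 is barely visible in every bar.

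The members outside the core list include rows that are themselves copies of core genes. Of the 14, 3 had a mean under 1 FPKM and were not tested: Rpl3l, the striated muscle paralog of Rpl3, at 0.137 ± 0.118 and 0.297 ± 0.121 FPKM, Rpl39l, known from testis, at 0.430 ± 0.314 and 0.333 ± 0.203, and the retrogene Rps23rg1 at 1.06 ± 0.258 and 0.320 ± 0.328 (SD, n = 3 each). Of the 11 tested, 8 fell, 1 rose and 2 made no call, with a median log2 fold change of -0.46, where 40.6% of all tested genes fell. Of the 11, 6 also count among the copies of core genes above (Rpl32l, Rpl37rt, Rpl6l, Rps3a2, Rps3a3 and Rps27rt), and 5 of these fell. Among the 5 that are no such copy 3 fell, Rpl22l1, Rps27l and Rpl36al, so that 3 members outside the core fell once copies were added to their parents. Rpl22l1, the paralog of Rpl22 with a role in T cell development, had 89.4, 89.5 and 88.4 FPKM in MHCII-lo against 55.1, 53.4 and 56.2 in MHCII-hi, a log2 fold change of -0.69 (adjusted p = 1.24e-06). Rps27l, a p53-inducible paralog of Rps27, had 75.3, 81.6 and 87.4 against 55.6, 50.5 and 59.5 FPKM, a log2 fold change of -0.55 (adjusted p = 5.99e-04). In both genes the fractions did not overlap. Rpl36al, the autosomal paralog of X-linked Rpl36a, fell from 114 ± 4.67 to 87.2 ± 3.07 FPKM.

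The log2 ratio of a paralog or copy to its core partner was taken within each library, from FPKM + 1. In all, 11 such ratios were compared, each by a two-sided exact permutation test with no p below 0.1 possible. The added 1 weighs on the ratios of low genes. Rpl22l1 to Rpl22 was -0.315 ± 0.0191 in MHCII-lo against -0.312 ± 0.0468 in MHCII-hi (exact p = 1.0), a difference of 0.0033. Rps27l to Rps27 was -2.13 ± 0.155 and -2.27 ± 0.209 (exact p = 0.5), a difference of -0.139, with overlapping fractions. With Rps27 copies added the difference was -0.132 and the fractions were apart (exact p = 0.1). There were 3 ratios that were higher in MHCII-hi without overlap: Rpl36al to Rpl36a by 0.133, Rpl7l1 to Rpl7 by 0.252 and Rps4l to Rps4x by 0.908 (exact p = 0.1 each, 0.367 after Benjamini-Hochberg adjustment over the 11). Under quantile normalization the Rpl7l1 to Rpl7 difference was 0.137. The other 6 ratios have a numerator that also counts among the copies of core genes, so reads may be shared between their 2 rows. These ratios, of Rpl6l, Rps27rt, Rpl37rt, Rps3a2, Rps3a3 and Rpl32l to their partners, differed by -0.146 to 0.0209, with exact p between 0.4 and 1.0. Some of these moved with the setting. With a pseudocount of 5, Rps3a3 to Rps3a1 differed by 0.141 (exact p = 0.1) and Rpl32l to Rpl32 by 0.206 (exact p = 0.2). Leaving out each library in turn took Rps27rt to Rps27 from -0.564 to 0.403.

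The 3 tested members with no call were Rpl7a, described above, Rpl7l1 and Rps27rt, and Rps4l was the 1 called higher. Rpl7l1, a nucleolar relative of Rpl7, had 26.1, 24.4 and 24.8 FPKM in MHCII-lo against 23.1, 23.7 and 24.4 in MHCII-hi (log2 fold change -0.07, adjusted p = 0.121). Its fractions overlapped, and its sign turned to 0.05 under median-ratio scaling. Relative to the core mean it was higher by 0.48 (adjusted p = 3.65e-05). On that scale 79.2% of all tested genes were higher, with a median of 0.43, so Rpl7l1 lay near the typical gene. Rps4l, an S4-like gene at low level, had 3.40, 5.32 and 4.39 FPKM against 6.85, 5.04 and 6.68, a log2 fold change of 0.43 (adjusted p = 0.0466). Those fractions overlapped in 1 library, and the call was lost without MHCII-hi library 1 (adjusted p = 0.130) or 3 (0.125), without MHCII-lo library 1 (0.119) or 3 (0.0933), and in 3 other settings. Rps27rt, a retrocopy of Rps27, varied within fractions (102, 101 and 171 against 97.3, 40.3 and 138 FPKM) and made no call.

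Other genes listed for TOP tracts, most but not all of the translation machinery, moved in the same direction. The list of 19 includes Fau, so it is not wholly separate from the ribosomal proteins. All 19 fell, with a median log2 fold change of -0.44, where 40.6% of all tested genes fell with a median of -0.12. Eef2, the translocation factor of elongation, had 759, 756 and 764 FPKM in MHCII-lo against 533, 538 and 533 in MHCII-hi (log2 fold change -0.51), and Tpt1, a translationally controlled growth protein, had 759, 760 and 753 against 550, 535 and 537 (-0.49). Of 11 genes of TOP control 1 rose, 3 fell (27.3%) and 7 made no call, with a median of -0.09. Eif4ebp1, the inhibitor of cap binding that mTOR phosphorylates, rose from 14.4 ± 0.564 to 18.1 ± 0.853 FPKM (adjusted p = 0.00109), and Larp1, the TOP-binding repressor, fell from 32.0 ± 0.236 to 28.8 ± 0.925 FPKM (adjusted p = 0.00564), a call lost under median-ratio scaling (log2 fold change -0.02) and with the neutrophil markers out of the total (-0.01). Of 9 chaperones and assembly factors of ribosomal proteins 7 fell (77.8%, against 40.6% of all tested genes), with a median of -0.31, among them Aamp, a WD-repeat protein, at -0.38 and Nob1, the nuclease that finishes 18S ribosomal RNA, at -0.31.

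Promoter windows of the members were searched on the sense strand for runs like those of TOP tracts. RefSeq windows on GRCm38.p6 were found for 57 of the 77 core genes, 67 windows in all. A C followed by at least 4 further C or T within 30 bases of the annotated start was present in 56 of the 67, or 83.6%, against 59.1% of all 32851 windows. It was present in 9 of 12 windows (75.0%) of 11 other genes listed for TOP tracts. For members outside the core it was also 9 of 12. With at least 7 further C or T, a length chosen after the data were seen, the shares were 49.3% and 18.2%. They were 41.7% (5 of 12) for the other TOP genes and for members outside the core. The sequences below run from 20 bases before the start to the 20th base from it, with the longest such run in capitals, and were picked to show long runs, members with the lowest and the highest fold changes, and paralogs beside their partners. They lie at chr2:39005112-39005151 on the minus strand for Rpl35, chr7:109519175-109519214 on the plus strand for Rpl27a, chr7:141447631-141447670 plus for Rplp2, chr7:3704021-3704060 plus for Rps9, chr17:33824543-33824582 minus for Rps28, chr3:90213629-90213668 minus for Rps27, chr9:114982720-114982759 minus for Rps27rt, chr9:66946066-66946105 plus for Rps27l, chr3:28805488-28805527 plus for Rpl22l1 and chr17:46782637-46782676 minus for Rpl7l1.
Rpl35: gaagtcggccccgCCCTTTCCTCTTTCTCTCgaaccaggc
Rpl27a: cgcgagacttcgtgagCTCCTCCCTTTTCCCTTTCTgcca
Rplp2: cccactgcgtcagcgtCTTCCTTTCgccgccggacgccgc
Rps9: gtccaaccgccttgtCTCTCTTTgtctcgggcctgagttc
Rps28: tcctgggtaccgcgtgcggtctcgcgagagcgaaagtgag
Rps27: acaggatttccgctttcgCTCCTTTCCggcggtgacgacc
Rps27rt: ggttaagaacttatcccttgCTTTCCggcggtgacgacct
Rps27l: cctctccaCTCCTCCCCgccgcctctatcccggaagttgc
Rpl22l1: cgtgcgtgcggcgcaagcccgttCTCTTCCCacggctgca
Rpl7l1: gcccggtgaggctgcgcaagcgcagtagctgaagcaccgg

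Rpl35 and Rpl27a held runs of 18 and 20 bases, and Rplp2 and Rps9, at opposite ends of the fold changes, held runs of 9 and 8. Rps28, which fell by 0.75 on the log2 scale, had no run in the stretch shown, and neither had Rpl7l1, which made no call. That stretch reaches 20 bases to each side of the start, whereas the shares above were counted within 30 bases. The retrocopy Rps27rt repeats the start of its parent: the longest stretch shared by the 2 windows, from 100 bases before to 50 after the start, was 38 bases, against 8 bases for Rps27 and Rps27l and 7 bases for Rpl22 and Rpl22l1. A run in such a window is a match of letters and not a mapped transcript start.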

How the data were processed

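Messenger RNA was sequenced from 6 libraries of sorted bone marrow cells, 3 per fraction, with a stranded TruSeq kit per the labels' protocols. Per the submitters' processing notes, fastp, HISAT2 and StringTie were used with GRCm38 (mm10), in an order and with settings not given in the sources used here. The deposited values per gene are taken as FPKM, a unit inferred from StringTie and from the values. Depth is unknown. Of rows with a repeated symbol the one with the highest mean was kept.

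Genes averaging 1 FPKM or more were tested on log2(FPKM + 1) with limma 3.58.1 (R 4.3.3, intensity trend, no covariates, all 6 libraries), Benjamini-Hochberg adjustment over 12037 genes and a threshold of 0.05. A pseudocount of 1 understates changes of low genes. Values per library were compared by two-sided exact permutation tests. The limma step was tested on simulated data. Copies were found with blastn 2.17.0 in GENCODE M21 transcripts, and adding their FPKM to the parent is approximate, since transcripts differ in length. This was chosen after seeing the data. Sequences are from RefSeq (GRCm38.p6).

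The members and lists were chosen with earlier results of these data known. The rule for named genes took each tested member outside the core, the 6 core genes with the largest and the 6 with the smallest fold change, the 5 highest and 5 lowest by mean, the stalk and 5S genes, Fau, and the 2 genes of smallest p in each list of TOP, TOP control and chaperone genes. Some genes are counted in the lists but not reported here by name. Copies and any other gene named were chosen after their values were seen. Alternatives were other pseudocounts, filters, scalings, limma without the trend, the replicate block, summed repeated symbols and each library left out in turn.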

Additional observations from a re-analysis of the deposited data

How the results depend on the processing

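Outside the setting centred on the core genes, 710 of 724 values of the 43 named genes kept their direction and their side of the threshold. Of the 5 genes that did not, Rpl7l1 turned to 0.0518 under median-ratio scaling and to 0.0583 with the neutrophil markers out of the total, and Rpl21, Rpl32l, Larp1 and Rps4l lost their call in 1 or more settings. The count of members that rose, 1, became 0 with no filter, with no intensity trend and with the replicate block, and ran from 0 to 1 when each library was left out. Members that fell then numbered 83 to 85. Copies added to the parent left 3 members outside the core that fell in place of 8, since merged copies no longer have a row. The large minus small difference was -0.0489 under quantile normalization and 0.0191 with copies added. The core share differed by -2.31 points without the neutrophil markers. The Rpl7l1 to Rpl7 ratio differed by 0.137 under quantile normalization, and with a pseudocount of 5 the ratios of Rps3a3 to Rps3a1 and Rpl32l to Rpl32 differed by 0.141 (exact permutation p = 0.1) and 0.206 (exact permutation p = 0.2); the cause was not tested. Same-numbered libraries of the 2 fractions had correlations of -0.0533, -0.0456 and -0.0435 between their deviations. These values cannot tell whether same-numbered libraries came from the same mice, since the spread within fractions could be purely technical. The replicate block changed no count other than the 1 higher member, Rps4l (adjusted p = 0.0934).

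Centring each library on the core mean removes the common shift by construction. It left 22 members lower and 32 higher (large subunit 11 and 14, small subunit 10 and 14, outside the core 1 and 4) and a core median of 0.0214. Of all tested genes 3.44% were lower and 79.2% higher there, with a median of 0.432. Without each library in turn, 17 to 20 core genes were lower and 23 to 30 higher on that scale. Named genes whose log2 fold change turned from below to above 0 there were Rpl32l 0.0346, Rpl36al 0.163, Rpl6l 0.121, Rpl7l1 0.476, Rps3a2 0.0893, Rps3a3 0.112, Rpl6 0.177, Rpl27 0.187, Rps24 0.197, Rpl9 0.202, Rps9 0.208, Rpl7 0.224, Rps4x 0.0697, Rpl4 0.0948, Rplp0 0.0533, Rps3a1 0.0909, Rps15a 0.0547, Rpl12 0.0157, Rpl5 0.0214, Rpl11 0.0733, Fau 0.172, Eef2 0.0446, Tpt1 0.0656, Larp1 0.404, Aamp 0.176 and Nob1 0.238. With 3 libraries per fraction, unknown depth and reads shared with copies, the precision of single rows is limited.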
